A study of Mus musculus with 17 samples.

Results

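Skin mast cells were picked out of 8 single-cell RNA libraries by a count rule. A cell was kept with at least 200 genes and at most 20% of its UMIs from mitochondrial genes, a UMI (unique molecular identifier) being the count of 1 captured RNA molecule. Mast cells were chosen by the UMI counts of 6 genes: a kept cell was called a mast cell when the granule protease genes Cpa3, Mcpt4, Cma1 and Tpsb2 summed to at least 10 UMIs and the receptor genes Kit and Ms4a2 to at least 1. The rule found 707 mast cells among 30085 kept skin cells (2.35%) from 31972 barcodes. Since these 6 genes chose the cells, their high level in them is a description and not a finding.

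Mast cells are blood-derived sentinels that finish their maturation in tissues, where stem cell factor acting on the receptor Kit keeps them alive. Those of connective tissue such as skin fill their granules with heparin, histamine, serotonin, chymases, tryptases and carboxypeptidase A3, and release them when IgE bound to the high-affinity receptor FcεRI is cross-linked or when Mrgpr receptors sense cationic peptides. They are found near vessels and nerves and accumulate in several fibrotic disorders of skin.

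The mice were 8 weeks old and all carried PDGFRb-Cre and the Z/EG reporter, so that cells in which Cre had acted expressed GFP. SARATg mice overexpressed SARA (Smad anchor for receptor activation, encoded by Zfyve9), from a human cDNA released by Cre, and SARAWT littermates did not. Either genotype received subcutaneous PBS or bleomycin, which gave 3 SARAWT PBS, 3 SARAWT bleomycin, 1 SARATg PBS and 1 SARATg bleomycin library. By the labels bleomycin was given at 20 mg/kg, 3 times per week for 2 weeks, whereas the methods of the study describe daily injections. Skin was digested and GFP-positive cells were sorted. The sort set which mast cells could be seen, and by the study's own description Cre acts in leukocytes of this line as well as in pericytes. The share of all skin mast cells inside the gate is unknown. A SARATg group of 1 library has no replicate of its own, and nothing in the labels says whether the SARAWT libraries came from separate animals.

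The libraries differed in ways that touch the results. Total UMIs ran from 3355217 to 69765525. Mouse Zfyve9 went against a label: it stood at 619 CPM (UMIs of a gene per 1000000 UMIs) in the mast cells of the library labelled SARAWT PBS 3, beside 539 CPM in SARATg PBS, 477 CPM in SARATg bleomycin and 0 to 33.9 CPM in the others. The human ZFYVE9 entry, listed in 4 SARAWT libraries alone, stood at 1436 CPM in mast cells of the library labelled SARAWT PBS 1 and at 0 to 221 CPM in the other 3. Those 4 libraries (SARAWT PBS 1 and 2, SARAWT bleomycin 1 and 2) were counted on the longer of 2 gene lists and held Xist, and the other 4 held the Y-linked Ddx3y at 295 to 303 CPM. Gene list and sex therefore cannot be told apart, and a gene list term was kept in every main fit that covered both genotypes. Some alternatives dropped or replaced it.

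Mast cells were shallow. Their median ran from 1193 to 1727 UMIs per cell, against 6556 to 11459 in other kept cells of 7 libraries and 1269 in SARAWT PBS 2. Of the 707 cells, 190 had under 1000 UMIs, while 46 had over 5000 and together held 27.7% of all mast cell UMIs. The threshold was not crowded: 20 mast cells had 10 to 12 protease UMIs, and 12 kept cells with a receptor UMI fell just short with 7 to 9. Another 87 kept cells passed on proteases but had no Kit or Ms4a2 UMI, and these were shallower still at a median of 911 UMIs, beside 1434 over the mast cells. At this depth a missing receptor UMI does not show a missing receptor. A Cpa3 UMI was seen in 0.386% to 2.92% of other kept cells.

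Cells of possibly mixed identity were counted before any comparison. At least 3 UMIs from a marker list of another cell type were present in 106 mast cells, and 32 were predicted doublets. Among the 46 deepest cells 27 carried such markers, as the plot of depth by library shows, and 6 had 10 or more Col1a1 UMIs. The bound of 3 UMIs is the same at every depth, so deep cells reach it more readily and a mark alone does not show a mixed cell. A marked SARATg bleomycin cell of 8740 UMIs had 502 protease UMIs, no Col1a1 UMI and no doublet call. In SARATg PBS a cell of 20538 UMIs had 1819 Col1a1 and 2090 Col1a2 UMIs, and another of 11475 UMIs had 845 and 1077. The library labelled SARAWT PBS 3 held a cell of 26184 UMIs with 808 UMIs of Dct, a melanocyte enzyme, that passed on 12 Tpsb2 and 8 Kit UMIs without any Cpa3, Cma1 or Mcpt4. Barcodes shared between libraries were carried by 4 mast cells, 2 in the library labelled SARAWT PBS 1 and 2 in SARAWT bleomycin 2. Each comparison of gene levels between groups was therefore also run without doublets, without cells bearing other markers and without the deep cells.

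**Figure D1:**
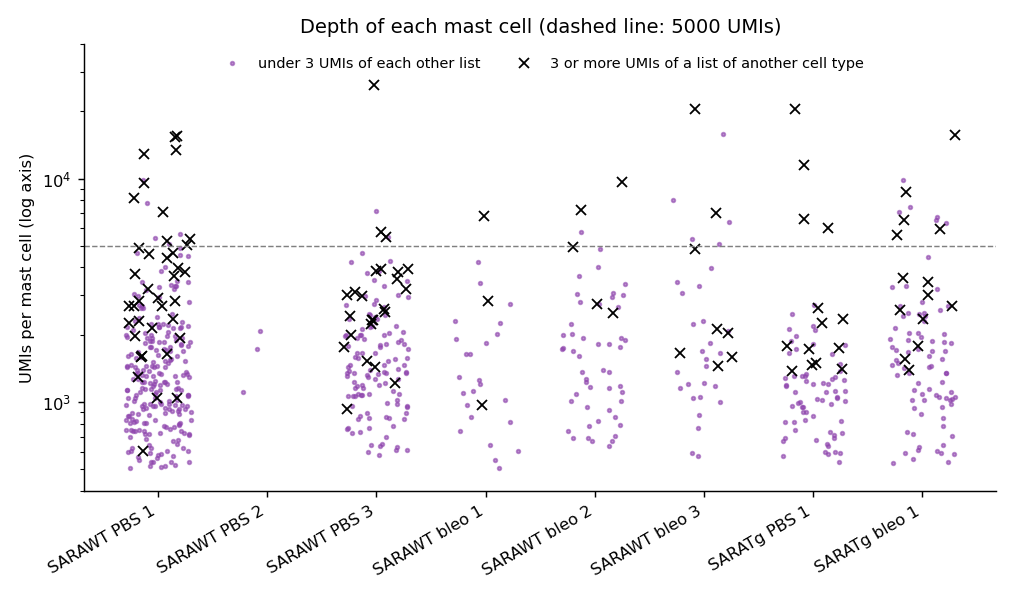
UMIs per mast cell (log axis) in each of the 8 skin libraries, with 1 point per cell, where crosses mark cells with 3 or more UMIs of a marker list of another cell type and the dashed line stands at 5000 UMIs. Of the 46 cells above the line 27 are crosses, and most mast cells sit below 2000 UMIs (491 of 707).

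Genes of connective tissue mast cells outside the rule were also high in these cells. Since the cells and the leading genes were chosen by their levels, the ratios are a description. Genes were ranked by the ratio of their CPM in summed mast cells to that in all other kept cells of the same library, with 10 CPM added to both sides, and the median over 8 libraries was taken. The 30 leading genes, which include the 6 of the rule, had a median log2 ratio of 5.55, or 8.06 with 1 CPM added in place of 10, and those outside the rule ran from 4.73 to 8.07. Mcpt4, Cpa3, Cma1 and Tpsb2 led at 9.80, 9.63, 9.55 and 8.18, as the rule dictates. Outside the rule the receptor gene Mrgprb1 came first at 8.07 (1985 to 3801 CPM in mast cells), and Mrgprb2, the receptor for cationic secretagogues, stood at 5.96 (475 to 1667 CPM).

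Each gene of the rule was found in all 8 libraries. Cpa3, which encodes carboxypeptidase A3, ran from 9745 CPM in SARATg PBS to 24385 CPM in the 3 cells of SARAWT PBS 2, and from 9745 to 14284 CPM in the other 7 libraries. Mcpt4, a chymase, ran from 8979 to 17924 CPM and Cma1, the other main chymase of skin, from 8127 to 13964 CPM. Tpsb2, a tryptase, was the most variable, from 1441 CPM in the library labelled SARAWT PBS 3 to 7503 CPM in SARAWT PBS 2. Kit ran from 1063 to 1546 CPM, and Ms4a2, the beta chain of FcεRI, from 417 to 1032 CPM. A UMI of Cma1 was seen in 704 of the 707 cells (99.6%), of Cpa3 in 702 (99.3%), of Mcpt4 in 698 (98.7%) and of Tpsb2 in 525 (74.3%).

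Outside the rule the genes ranged from nearly uniform to patchy over cells. Mrgprb1 had a UMI in 654 mast cells (92.5%), Hdc in 635 (89.8%) and Gata2 in 518 (73.3%). Cma2 was seen in 311 cells (44.0%), Il4 in 263 (37.2%), Tph1 in 233 (33.0%), Fcer1a in 203 (28.7%) and Tpsab1 in 148 (20.9%). These shares follow depth and level as well as the number of expressing cells, which cannot be told apart in shallow cells. The mucosal mast cell genes Mcpt1 and Mcpt2 had a UMI in 1 and 9 cells.

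The enzymes and carriers of granule amines were prominent. Hdc, which makes histamine, ran from 2266 to 4794 CPM in mast cells. Slc18a2, which loads monoamines into vesicles, ran from 657 to 1251 CPM, and Slc6a4, the serotonin transporter, from 679 to 1066 CPM. Tph1, the first enzyme of serotonin synthesis, varied far more, from 0 to 767 CPM. These ranges cover all 8 libraries, and the 0 for Tph1 came from the 3 cells of SARAWT PBS 2.

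Other leading genes were those of the lineage. Gata2, the transcription factor that mast cells depend on, ran from 811 to 1481 CPM against at most 4.61 CPM in other cells. Cyp11a1, the first enzyme of steroid synthesis, ran from 834 to 1345 CPM, and Rab27b, a GTPase of granule release, from 433 to 834 CPM. Fcer1a, the chain of FcεRI that binds IgE, had a log2 ratio of 5.48 and reached 736 CPM. Il4, a type 2 cytokine, was also among the 30, at 90.0 to 625 CPM. Ptprc, the pan-leukocyte gene, had a UMI in 33.3% to 52.9% of mast cells. The plot of the leading genes gives every range.

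**Figure D2:**
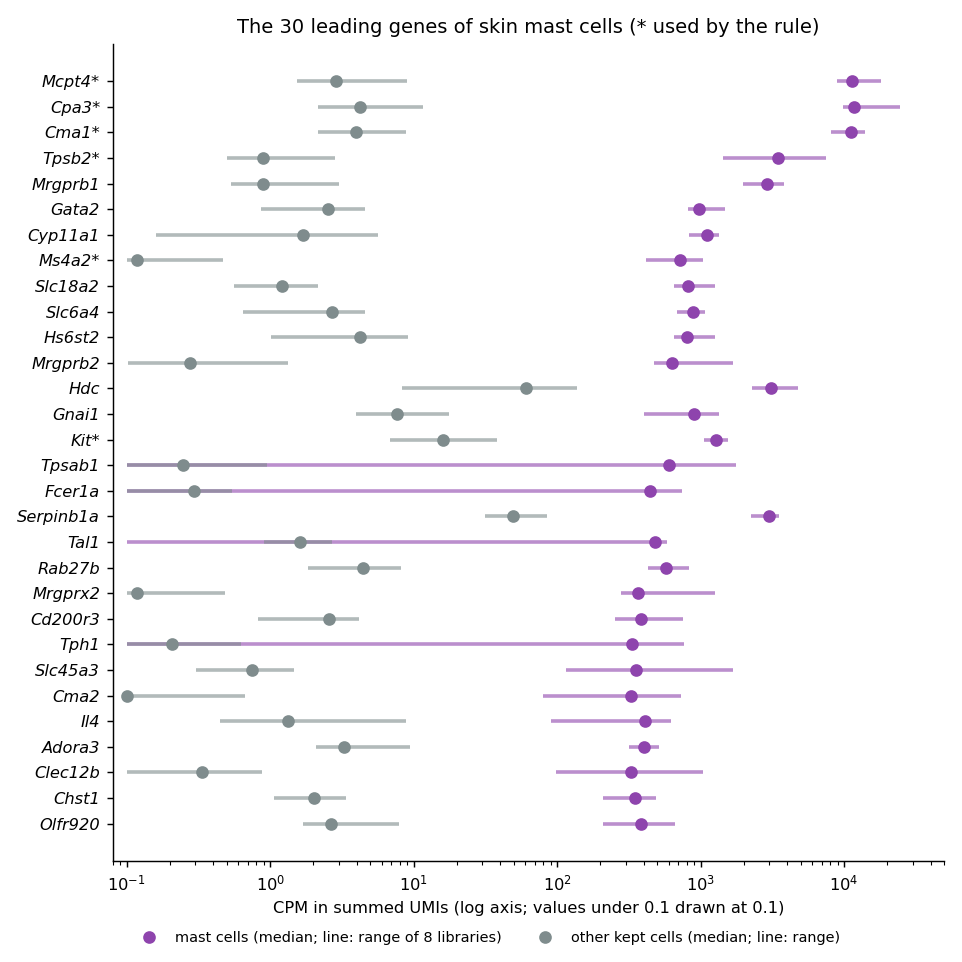
The 30 leading genes of skin mast cells, with CPM in summed UMIs on a log axis for mast cells (purple) and for all other kept cells (grey), where points are medians and lines the ranges over 8 libraries, and asterisks mark the genes of the rule. Mcpt4, Cpa3 and Cma1 stand furthest right, and Tpsab1, Fcer1a, Tal1 and Tph1 have mast cell ranges that reach 0 in SARAWT PBS 2.

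The promoters of 4 genes of the rule are shown because GATA sites are a known feature of mast cell genes and Gata2 was among the leading genes. They are the 250 bases before the RefSeq start (GRCm38.p6, 5′ to 3′ on the gene's strand), and capitals mark matches on either strand to AGATAA and AGATAG, and likewise to TGATAA and TGATAG. Cpa3 lies on the minus strand at chr3:20242182-20242431, Cma1 on the minus strand at chr14:55944676-55944925, Mcpt4 on the minus strand at chr14:56062311-56062560 and Ms4a2 on the minus strand at chr19:11623720-11623969.
Cpa3: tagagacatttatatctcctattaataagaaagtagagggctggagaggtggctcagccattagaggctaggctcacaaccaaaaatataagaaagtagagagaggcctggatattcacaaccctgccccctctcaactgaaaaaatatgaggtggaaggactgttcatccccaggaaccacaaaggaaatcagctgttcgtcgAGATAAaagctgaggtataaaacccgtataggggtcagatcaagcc
Cma1: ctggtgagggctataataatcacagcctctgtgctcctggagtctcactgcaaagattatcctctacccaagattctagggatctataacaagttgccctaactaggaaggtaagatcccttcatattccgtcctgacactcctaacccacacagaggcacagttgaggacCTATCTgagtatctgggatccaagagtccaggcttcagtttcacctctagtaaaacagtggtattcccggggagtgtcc
Mcpt4: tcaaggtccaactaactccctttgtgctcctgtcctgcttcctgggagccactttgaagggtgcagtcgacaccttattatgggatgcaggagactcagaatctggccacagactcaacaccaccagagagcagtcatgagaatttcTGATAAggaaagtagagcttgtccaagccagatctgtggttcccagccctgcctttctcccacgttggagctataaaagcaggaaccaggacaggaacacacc
Ms4a2: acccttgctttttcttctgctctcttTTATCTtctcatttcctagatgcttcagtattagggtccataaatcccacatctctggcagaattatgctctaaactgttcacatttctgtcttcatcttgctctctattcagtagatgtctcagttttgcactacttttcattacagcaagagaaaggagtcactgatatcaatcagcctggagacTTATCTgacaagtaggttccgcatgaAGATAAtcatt
Ms4a2 held 3 matches and the other genes 1 each. Over windows from 250 bases before to 50 after a start, 18 of 33 windows of leading genes (54.5%) and 9778 of all 32851 (29.8%) held a match. The 2 Kit windows, the remaining gene of the rule with an entry, and those of Gata2 held no match, and the genes shown were those of the rule with one. The letters are a description, and nothing here measured binding. Tpsab1 and Tpsb2 had no promoter entry.

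The share of mast cells was compared first. It was 6.62% (95% exact binomial interval 5.88 to 7.43), 0.384% (0.0793 to 1.12) and 3.02% (2.55 to 3.55) in the libraries labelled SARAWT PBS 1, 2 and 3. After bleomycin the SARAWT libraries gave 1.25% (0.827 to 1.82), 2.54% (1.92 to 3.29) and 0.565% (0.398 to 0.778). SARATg PBS had 1.76% (1.39 to 2.18) and SARATg bleomycin 1.84% (1.49 to 2.24). The groups overlapped, since SARAWT PBS 2 was the lowest library and the other 2 SARAWT PBS libraries the highest. In SARAWT PBS 2, 59.8% of kept cells carried barcodes shared with another library. In SARAWT bleomycin 1 and 2 it was 19.6% and 25.2%. Without such cells SARAWT PBS 2 had a share of 0.955% and SARAWT bleomycin 3 was lowest at 0.569%. SARAWT bleomycin 2, at 3.27%, then lay above the library labelled SARAWT PBS 3, at 3.04%. SARAWT bleomycin 3 was also lowest with stricter filters (500 genes and 10% mitochondrial UMIs). The same held after thinning to 1000 UMIs, where 3 protease UMIs and no receptor UMI were asked for. It held too among cells with Ptprc, to which every mast cell was added with or without a Ptprc UMI. Over the SARAWT libraries the share averaged 3.34% ± 3.13 (SD, n = 3) for PBS, while bleomycin libraries averaged 1.45% ± 1.0 (SD, n = 3), which is a difference of -1.89 points (exact permutation test, two-sided p = 0.5, smallest possible 0.1). Without the library labelled SARAWT PBS 1 the difference was -0.250 points, without SARAWT PBS 2 it was -3.37 points (exact permutation test, two-sided p = 0.1, the smallest possible), and over all 8 libraries it was -1.40 points (exact permutation test, two-sided p = 0.429). The intervals cover counting error only, and a change in share was not detectable with this spread between libraries.

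**Figure D3:**
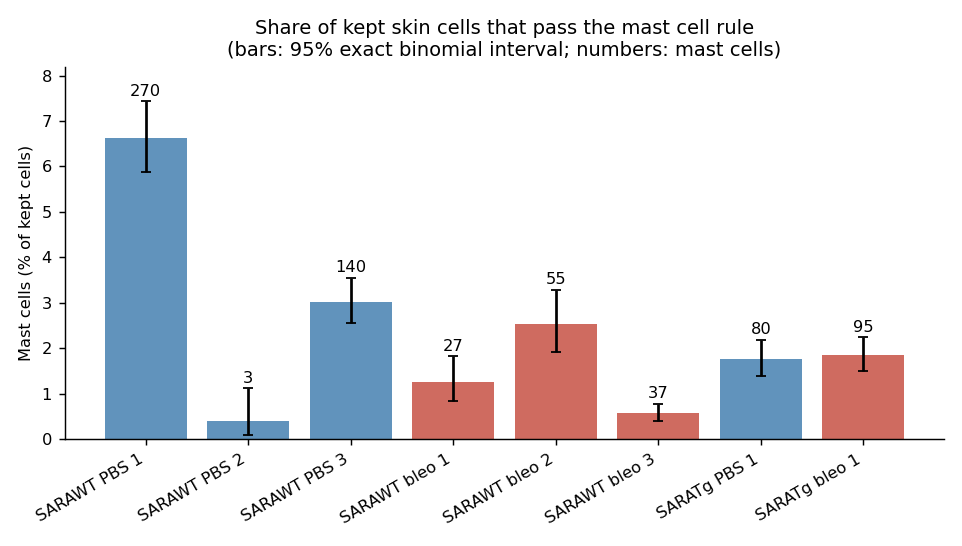
Mast cells as a percentage of kept cells in each skin library (bars; blue PBS, red bleomycin), with 95% exact binomial intervals and the number of mast cells above each. The library labelled SARAWT PBS 1 is highest at 6.62% and SARAWT PBS 2 lowest at 0.384%, from 3 cells.

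To ask which genes changed in mast cells after bleomycin, UMIs were summed per library over its mast cells and tested with edgeR. SARAWT PBS 2, with 3 cells, was left out of every fit but the alternatives with no minimum of cells. Among libraries labelled SARAWT (2 PBS against 3 bleomycin) Tpsab1, which encodes a tryptase, was the single gene that rose, and the collagen genes Col1a1 and Col1a2 and the matrix gene Sparc fell. Both of those PBS libraries, PBS 1 and PBS 3, are the ones whose ZFYVE9 or Zfyve9 level stood out from the other libraries of their label. Over both genotypes (3 against 4) Tpsab1 rose again, as did Fcer1a, Tph1, Csf2rb and Csf2rb2, while Fos, Dusp1 and a larger set of stromal genes fell. Of these non-stromal calls Tpsab1 alone held both without the gene list term and without the library labelled SARAWT PBS 1. Calls were few: 1 higher and 3 lower of 2411 genes in the first comparison (0.0415% and 0.124%), and 10 higher and 17 lower of 2871 in the second (0.348% and 0.592%). The 2 comparisons share 5 libraries. In the second, all 3 PBS libraries were high in Zfyve9 or human ZFYVE9, with SARATg PBS at 539 CPM of Zfyve9. Of the 4 bleomycin libraries SARATg bleomycin alone was high in Zfyve9, at 477 CPM. The genotype term follows the labels and does not adjust for this, and its part in the calls was not tested.

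Among genes outside the stromal set Tpsab1 had the smallest adjusted p over both genotypes. It stood at 130.1 and 206 CPM in the libraries labelled SARAWT PBS 1 and 3 and at 108 CPM in SARATg PBS. With bleomycin it stood at 1259.9, 1451 and 1006 CPM in SARAWT 1, 2 and 3 and at 1762 CPM in SARATg. Every bleomycin library lay above every PBS library, and SARAWT PBS 2 had no UMI in its 3 cells. The log2 fold change was 3.14 ± 0.29 (SE) over both genotypes (adjusted p = 2.6e-05) and 2.86 ± 0.39 in SARAWT (adjusted p = 0.0322). The call over both genotypes held in all 18 alternatives run (2.86 to 3.53), including those without deep cells (3.00) and without cells of mixed markers (2.98). The SARAWT call was lost in 7 of 15 alternatives, with adjusted p of 0.0664 to 0.222 and the same direction, namely the 5 that left out a library, the one without cells of mixed markers and the one that asked for 30 protease UMIs.

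Tpsab1 (ENSMUSG00000024173, chr17:25343245-25345562, minus strand, GRCm38) lies close to the related Tpsb2 (ENSMUSG00000033825, chr17:25366305-25369098, plus strand), a gene of the rule, so that reads could in principle be split between them. Their aligned transcripts were identical at 798 of 1036 bases (77.0%). The last coding stretches, in exon 5 of Tpsab1 (chr17:25343422-25343583) and exon 6 of Tpsb2 (chr17:25367682-25367843), are shown 5′ to 3′ on the coding strand with capitals where they differ, because a 3′ assay reads nearest to this end.
Tpsab1: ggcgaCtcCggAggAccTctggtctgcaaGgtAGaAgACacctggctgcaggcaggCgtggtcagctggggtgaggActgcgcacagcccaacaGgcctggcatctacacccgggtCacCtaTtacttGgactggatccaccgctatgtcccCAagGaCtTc
Tpsb2: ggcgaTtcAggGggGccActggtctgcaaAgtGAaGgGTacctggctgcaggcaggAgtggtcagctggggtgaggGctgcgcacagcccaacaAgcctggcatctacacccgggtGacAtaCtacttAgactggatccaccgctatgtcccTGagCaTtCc
They differed at 23 of 162 bases. Tpsb2 itself stood at 3371 and 1441 CPM in the libraries labelled SARAWT PBS 1 and 3, at 1546 CPM in SARATg PBS, at 5359.8, 3520.5 and 2201 CPM in the SARAWT bleomycin libraries and at 4919 CPM in SARATg bleomycin, with overlap between treatments. Tpsb2 helped to choose the cells, so these values are a description, and how reads were split between the copies was not measured.

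The tryptase was unevenly spread over cells. With PBS 14.8% and 18.6% of mast cells in the libraries labelled SARAWT PBS 1 and 3 had a Tpsab1 UMI, and 8.75% in SARATg PBS. With bleomycin it was 48.1%, 18.2% and 37.8% in SARAWT 1, 2 and 3 and 40.0% in SARATg, so that SARAWT bleomycin 2 lay within the PBS range by this measure. Cells with 3 or more Tpsab1 UMIs made up 1.85%, 5.71% and 2.50% with PBS and 25.9%, 18.2%, 24.3% and 27.4% with bleomycin. Single cells were heavy contributors: the highest cell held 75 UMIs in SARAWT bleomycin 2 and 137 in SARATg bleomycin, 44.4% and 34.7% of those libraries' Tpsab1 UMIs. Without the highest cell of each library the level was 86.8 to 172 CPM with PBS and 768 to 1186 CPM with bleomycin, still without overlap.

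Each cell was thinned to 2000 UMIs, leaving out shallower cells. The share with Tpsab1 was then 10.2%, 22.6% and 13.3% in the libraries labelled SARAWT PBS 1 and 3 and in SARATg PBS, from 76, 48 and 12 cells. It was 37.3%, 21.1% and 52.7% in SARAWT bleomycin 1, 2 and 3 and 44.0% in SARATg bleomycin, from 8, 19, 17 and 35 cells, so that SARAWT bleomycin 2 lay below the library labelled SARAWT PBS 3. At 1000 UMIs, a depth chosen after seeing the data, the groups did not overlap, and the share was 1.86% in SARATg PBS from 51 cells, 10.2% and 15.3% in the libraries labelled SARAWT PBS 1 and 3 from 183 and 111 cells, and 23.2% to 56.1% with bleomycin from 18 to 76 cells. In other kept cells it was at most 0.113%. The plot of Tpsab1 by cell shows the unthinned shares.

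**Figure D4:**
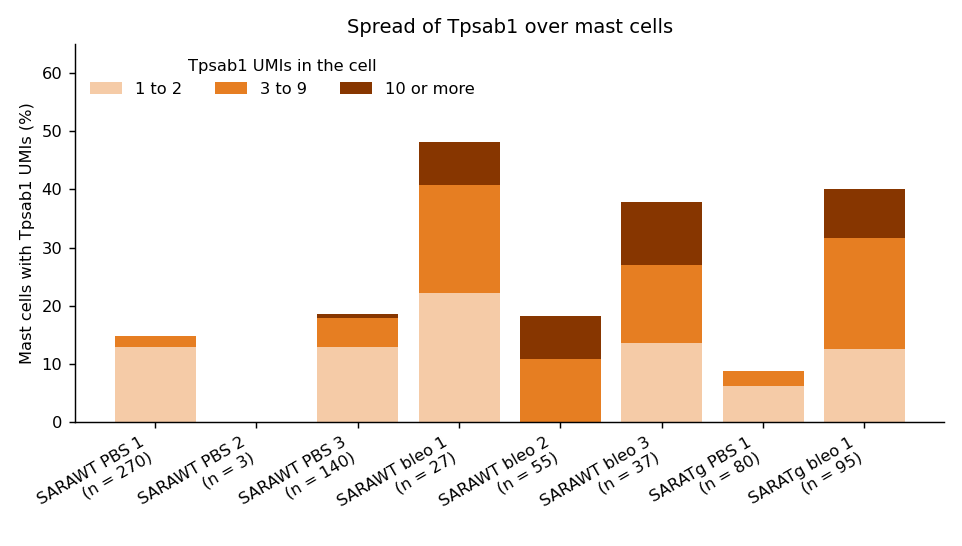
Percentage of mast cells in each library with 1 to 2, 3 to 9 and 10 or more Tpsab1 UMIs, stacked, with the number of mast cells under each bar. Cells with 3 or more Tpsab1 UMIs make up 18.2% to 27.4% of the bleomycin libraries and at most 5.71% of the PBS libraries.

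Of 5 granule protease genes tested outside the rule Tpsab1 alone passed the test over both genotypes, against a background of 0.348% for higher calls. The estimate was positive for 4 of the 5, with a median of 1.64 against 0.00 over all genes tested. Ctsg, which encodes cathepsin G, was seen in 32 mast cells and did not pass (1.64 ± 0.68, adjusted p = 0.442). Gzmb, which encodes granzyme B, was seen in 14 mast cells and did not pass either (2.30 ± 1.58, adjusted p = 0.711). Cma2, a chymase-related gene, stood at 733 and 309.6 CPM in the libraries labelled SARAWT PBS 1 and 3, at 107, 343 and 131 CPM after bleomycin in SARAWT, and at 79.1 CPM in SARATg PBS and 388 CPM in SARATg bleomycin. Tpsg1, the transmembrane tryptase, had a log2 fold change of 0.35 ± 0.27 (adjusted p = 0.744). Of 11 genes of granule matrix and amines 1 rose and none fell, with a median of 0.07 against 0.00 over all genes tested. That gene was Tph1. It stood at 151 and 313 CPM in the libraries labelled SARAWT PBS 1 and 3 and at 173 CPM in SARATg PBS, and at 491, 352, 573 and 767 CPM in SARAWT bleomycin 1, 2 and 3 and SARATg bleomycin. The groups did not overlap, and the change was 1.40 ± 0.26 (adjusted p = 0.0146). The call was lost without cells of mixed markers (1.16, adjusted p = 0.0612) and without SARATg bleomycin (1.13, adjusted p = 0.065). Hdc changed by 0.18 ± 0.17 (adjusted p = 0.815) and the granule proteoglycan gene Srgn by 0.48 ± 0.16 (adjusted p = 0.288).

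In the IgE receptor list 1 of 17 tested genes rose, none fell and the median was 0.08, where 0.348% of all genes were called higher and their median was 0.00. Fcer1a stood at 175 and 440.3 CPM in the libraries labelled SARAWT PBS 1 and 3 and at 108 CPM in SARATg PBS, and at 512, 446, 736 and 691 CPM in the 4 bleomycin libraries in the same order as before. The groups were just separate, by 440.3 against 446 CPM, with a change of 1.45 ± 0.29 (adjusted p = 0.0231). The call was lost without SARAWT bleomycin 1 (adjusted p = 0.0650) and without SARATg bleomycin (adjusted p = 0.0819). Fcer1g, the signalling chain that FcεRI shares, changed by 0.19 ± 0.19 (adjusted p = 0.831). The kinases Lyn (0.24 ± 0.24) and Syk (-0.56 ± 0.37) did not pass either.

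Surface receptors gave 2 higher calls of 15, none lower and a median of 0.30, beside 0.348% higher calls and a median of 0.00 over all genes. Both were chains for IL-3 family cytokines, which support mast cell growth. Csf2rb stood at 353, 1108 and 726 CPM with PBS and at 1239, 773, 1939 and 1485 CPM with bleomycin, and Csf2rb2 at 262, 1159 and 453 CPM against 961, 541, 2111 and 1093 CPM. Both overlapped between treatments because the library labelled SARAWT PBS 3 was high, and their changes were 1.07 ± 0.22 (adjusted p = 0.0304) and 1.16 ± 0.23 (adjusted p = 0.0231). Csf2rb and Csf2rb2 are near copies of each other, so reads may be split between them. Il1rl1, the IL-33 receptor, stood at 473, 258 and 331 CPM with PBS and 1259.9, 446, 933 and 914 CPM with bleomycin, and did not pass (1.23 ± 0.32, adjusted p = 0.105). Mrgprb1 (0.30 ± 0.17) and Mrgprb2 (-0.24 ± 0.21) did not pass either.

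Immediate early and stress genes, which respond within minutes to activation and to tissue digestion, had 0 higher and 2 lower calls of 26, against a background of 0.592% for lower calls. Of the 26 genes 22 had a negative estimate, with a median of -0.45. The median mitochondrial share per mast cell was 1.87%, 3.71% and 2.11% in the SARAWT PBS libraries and 0.747%, 1.39% and 1.07% in SARAWT bleomycin. In SARATg it was 4.32% with PBS and 3.28% with bleomycin, and a link to these genes was not tested. Fos, a subunit of AP-1, stood at 2157 and 1706 CPM in the libraries labelled SARAWT PBS 1 and 3, at 1496 CPM in SARATg PBS and at 1004, 1065, 229 and 914 CPM with bleomycin. All bleomycin libraries were lower, by -1.47 ± 0.29 (adjusted p = 0.0231), a call lost without SARAWT bleomycin 1 (adjusted p = 0.0650). Dusp1, a phosphatase that turns off MAP kinases, stood at 2739, 1362 and 1784 CPM with PBS and at 982, 1494, 548 and 941 CPM with bleomycin, and fell (-1.17 ± 0.20, adjusted p = 0.00668) with overlap between groups. Jun (-0.76 ± 0.17, adjusted p = 0.0602) and Hspa1b, a heat shock gene (-1.25 ± 0.32, adjusted p = 0.105), missed the threshold.

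Another 4 genes rose that lay outside the naming rule and were chosen after their values were seen. Gch1, the first enzyme of tetrahydrobiopterin synthesis, the cofactor of Tph1, stood at 92.4, 289 and 101 CPM with PBS and at 299, 172, 1293 and 433 CPM with bleomycin (1.77 ± 0.27, adjusted p = 0.00359). Furin, a proprotein convertase, changed by 1.16 ± 0.22 (adjusted p = 0.0148) and Por, which passes electrons to cytochrome P450 enzymes, by 1.40 ± 0.26 (adjusted p = 0.0148). Both calls were lost without the library labelled SARAWT PBS 1 (adjusted p = 0.193 and 0.188), that of Furin also without doublets (0.195) and without cells of mixed markers (0.0911), and that of Por also without the library labelled SARAWT PBS 3 (0.0678) or SARAWT bleomycin 3 (0.0690). Car2, a carbonic anhydrase, was seen in 10 mast cells alone and changed by 4.96 ± 0.58 (adjusted p = 0.000271). Of its 57 UMIs in SARAWT bleomycin 3, 52 lay in 1 predicted doublet of 20377 UMIs.

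SARAWT bleomycin 3, the highest library for Gch1, Csf2rb, Csf2rb2, Furin, Por and Car2, was also the one in which cells over 5000 UMIs held the largest share of mast cell UMIs, 55.6% against 0 to 38.5% in the others. Without such cells the calls of Furin (0.90, adjusted p = 0.123) and Por (1.16, adjusted p = 0.143) were lost, those of Gch1, Csf2rb and Csf2rb2 were kept and Car2 had too few UMIs to be tested. Without predicted doublets the calls of Csf2rb (adjusted p = 0.0588) and Csf2rb2 (adjusted p = 0.0702) were lost, that of Csf2rb also without cells of mixed markers (adjusted p = 0.0631) and without SARAWT bleomycin 1 (adjusted p = 0.0623).

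These calls leaned on the fit. With no gene list term Tpsab1 was the sole higher call left, and the adjusted p was 0.992 for Fcer1a, Csf2rb, Csf2rb2, Gch1, Fos and Dusp1, 0.623 for Tph1 and 0.478 for Car2. Without the library labelled SARAWT PBS 1 the calls of Fcer1a (adjusted p = 0.305), Tph1 (0.225), Csf2rb (0.386), Csf2rb2 (0.332), Fos (0.231) and Dusp1 (0.191) were also lost, while Tpsab1 was kept (0.00588). None of these estimates changed sign in any alternative in which the gene was tested. Fcer1a ranged from 1.07 to 1.82, Tph1 from 1.13 to 1.65, Csf2rb from 0.857 to 1.19 and Csf2rb2 from 0.876 to 1.29. Gch1 ranged from 1.505 to 2.09, Fos from -1.83 to -0.986 and Dusp1 from -1.315 to -0.920. The plot of 8 genes by library shows the spread behind these calls.

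**Figure D5:**
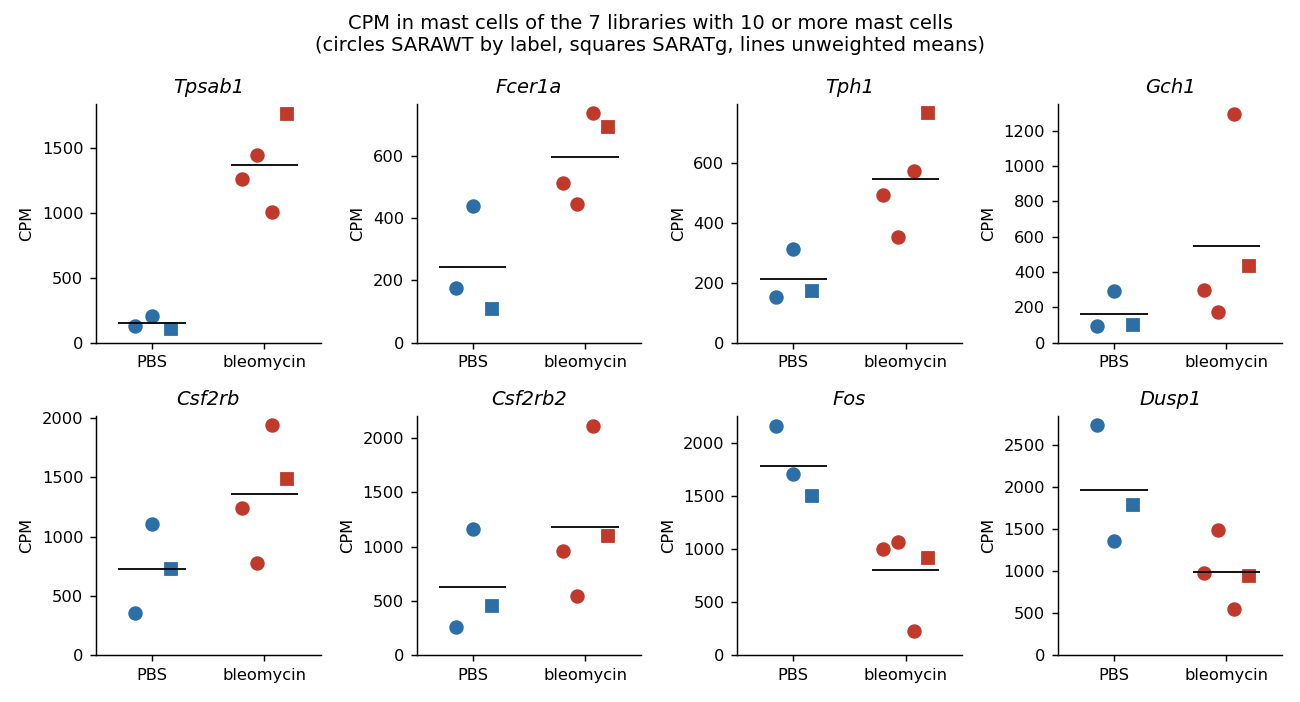
CPM of 8 genes in summed mast cells of the 7 libraries with 10 or more mast cells, PBS in blue and bleomycin in red, circles for libraries labelled SARAWT, squares for SARATg and lines for unweighted means. Tpsab1, Fcer1a, Tph1 and Fos do not overlap between treatments, and Tpsab1 shows the widest gap, 206 against 1006 CPM.

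Cytokine and chemokine genes gave no call among 14 tested, with a median of 0.06, where 0.348% and 0.592% of all genes were called. Of the 31 listed genes the other members had too few UMIs to be tested. Ccl7, a monocyte attractant, ran from 1459 to 12599 CPM over 8 libraries and Ccl2 from 1342 to 5317 CPM. Tnf, which mast cells can store preformed, ran from 834 to 1266 CPM. Il6 stood at 134, 533 and 194 CPM with PBS and 641, 343, 548 and 544 CPM with bleomycin (1.06 ± 0.33, adjusted p = 0.221). Il4 stood at 456, 241 and 409.9 CPM against 406, 446, 90.0 and 241 CPM (-0.66 ± 0.27, adjusted p = 0.440), and Il13 changed by -0.78 ± 0.37 (adjusted p = 0.533). Il31, the itch cytokine, had 1 UMI, in SARAWT bleomycin 2, and its receptor gene Il31ra had none. Of 4 tested genes of the IL-13 and IL-31 axis none was called.

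No further list gave a call apart from markers of other cells, where 0.348% of all genes were called higher and 0.592% lower. At those shares the absence of calls says little about lists this short. Among mast cell transcription factors 14 genes were tested (median -0.22), with Gata2 at -0.07 ± 0.24. Granule traffic had 11 tested genes (-0.12), TGF-beta signalling 7 (0.01), p53 targets 7 (0.22), survival genes 5 (0.14), the unfolded protein response 13 (-0.06), cell cycle 4 (-0.20) and eicosanoid enzymes 2 (0.32). Interferon-stimulated genes all had positive estimates, 7 of 7 with a median of 0.72, and none passed. Many members of these lists had too few UMIs to be tested, so that a change in them was not detectable at this depth.

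Markers of another cell class moved with treatment. The stromal marker list had 5 of 6 tested genes called lower with bleomycin, against 0.592% of all genes. The list summed to 62599 CPM in SARATg PBS, 2574 and 1452 CPM in the libraries labelled SARAWT PBS 1 and 3, and 98.2 to 1026 CPM in the bleomycin libraries. In the other kept cells it summed to 83493 CPM in SARATg PBS and to 14173 and 10437.5 CPM in the same SARAWT PBS libraries. With bleomycin it summed there to 3698 to 6693 CPM. How far the mast cell values follow those of the other cells was not tested. Col1a1 stood at 698, 402 and 19339 CPM with PBS and at 42.7, 17.2, 8.18 and 201 CPM with bleomycin (-6.27 ± 0.35, adjusted p = 8.1e-08). It was found in 73 mast cells, unevenly. In SARATg PBS, predicted doublets of 20538 and 11475 UMIs held 1819 and 845 Col1a1 UMIs. In the library labelled SARAWT PBS 1, cells of 15413, 13450 and 9575 UMIs held 123, 100 and 115. Igfbp5, which binds insulin-like growth factors, stood at 7.54, 75.7 and 396 CPM with PBS and had no UMI in the bleomycin libraries (adjusted p = 0.00209). That call was lost by DESeq2 (adjusted p = 0.998), without the gene list term (0.418) and without SARATg PBS (0.654). Col1a2 (-6.39 ± 0.32) and Sparc (-5.53 ± 0.57) did not overlap between treatments either, nor did the ribonuclease gene Rnase4 (-3.34 ± 0.58, adjusted p = 0.00986), whose call was lost without the gene list term (adjusted p = 0.338). Without cells over 5000 UMIs Col1a2 changed by -2.92 and Sparc by -1.71, and the call of Sparc was lost (adjusted p = 0.326). Selenop, a selenium carrier, changed by -1.45 ± 0.29 (adjusted p = 0.0231) and by -0.25 (adjusted p = 0.873) without cells of mixed markers. With cells of mixed markers left out the summed list was 156 to 813 CPM with PBS and 86.2 to 132 CPM with bleomycin. No gene was then called in the SARAWT comparison (edgeR, 47 at an unadjusted p under 0.05), and Tpsab1 was at an adjusted p of 0.0929. Dendritic cell markers summed to 319 to 6423 CPM and macrophage markers to 64.1 to 2112 CPM in the 7 libraries tested, with no gene of either list called. Their part in the results was not tested beyond these omissions.

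Mcpt8, a basophil protease, was called higher (6.91 ± 0.99, adjusted p = 0.00198) on a single library. It stood at 2610.3 CPM in SARAWT bleomycin 3 and at most 84.7 CPM elsewhere. Within that library 2 cells of 20377 and 15767 UMIs had 190 and 128 Mcpt8 UMIs, and together held 29.6% of its mast cell UMIs. Both also had Gzmb (208 and 317 UMIs), Kit (31 and 40) and Cpa3 (64 and 88), neither had a Tpsb2 or Mrgprb1 UMI, and both were predicted doublets. Mcpt1, a mucosal mast cell protease, had UMIs in the first of these cells alone, 74 in number. Without SARAWT bleomycin 3 Mcpt8 changed by 2.36 (adjusted p = 0.651), and DESeq2 gave an adjusted p of 0.917.

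The last comparison set SARATg against SARAWT over both treatments (2 against 5 libraries). Both SARATg libraries were on the shorter gene list. With the gene list term the contrast therefore rests mainly on the libraries labelled SARAWT PBS 3 and SARAWT bleomycin 3, the SARAWT libraries on that list. Of 2871 genes 12 were called higher (0.418%), which were genes of matrix and stroma such as Col1a2 (6.30 ± 0.39), Col1a1 (5.51 ± 0.40) and Dcn (3.90 ± 0.45) and the lipoprotein lipase gene Lpl (5.41 ± 0.88), and Mcpt8 was the 1 gene called lower (0.0348%). Without cells over 5000 UMIs Col1a2 was at -0.67 and Col1a1 at -0.76, and neither was called. Fn1, which encodes fibronectin, stood at 352 and 259 CPM in SARATg PBS and bleomycin and at 0 to 22.6 CPM in the libraries labelled SARAWT. Bgn, a matrix proteoglycan gene, stood at 194 and 93.7 CPM against 0 to 79.2 CPM. Without the cells of mixed markers none of these 13 had enough UMIs to be tested, and 0 genes were called (edgeR, 151 at an unadjusted p under 0.05). Lists that leaned one way with bleomycin also did so by genotype, without a call. Interferon-stimulated genes had 7 of 7 positive estimates (median 0.82). Immediate early and stress genes had 24 of 26 (median 0.56), beside a median of 0.00 over all genes tested. Zfyve9 did not pass (1.39 ± 0.68, adjusted p = 0.65), with the libraries labelled SARAWT PBS 3 and PBS 1, high in Zfyve9 and human ZFYVE9, among the controls. A fit without both libraries had no SARAWT PBS library left, since SARAWT PBS 2 was already out. With the gene list term it set SARATg bleomycin against SARAWT bleomycin 3 alone, so it could not test genotype. Tpsab1 changed by 0.15 ± 0.35 (adjusted p = 0.961), and its bleomycin effect differed between genotypes by 1.05 ± 0.60 on the log2 scale, which did not pass (adjusted p = 1). That difference passed for 13 of 3777 genes, each resting on 1 SARATg library per treatment. Its sign (SARATg minus SARAWT) was positive for 0.238% and negative for 0.106%, which does not say in which genotype the effect was larger.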

How the data were processed

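Libraries were made with 10x 3′ chemistry from GFP-positive skin cells, 8 in number, and the authors deposited UMI counts per gene and cell barcode, whole numbers without normalization. The submitters' processing notes name Cell Ranger 3.0.2, Seurat 2.3.4 and build mm10, while the file headers of the skin libraries name Cell Ranger 4.0.0 or 3.1.0. Genes were joined on 30406 identifiers shared by both gene lists, 597 of which carried another symbol in the other list. A 3′ assay counts the ends of transcripts, so near-identical genes may share reads.

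UMIs were summed per library over its mast cells, and libraries with at least 10 mast cells entered the fits. Changes were tested with edgeR 4.0.16 (quasi-likelihood, genes filtered by expression, TMM, Benjamini-Hochberg adjusted p under 0.05) in R 4.3.3, with genotype and gene list as covariates where both genotypes entered, after a test on simulated data. DESeq2 1.42.0 was an alternative. Other steps used Python 3.11.15, scanpy 1.11.5 (doublets, kept unless stated), scipy 1.17.1 and Biopython 1.88. Alternatives changed filters, cells, covariates and libraries.

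Named genes were those of 396 list genes, the 30 leading genes (at least 50 CPM in 6 libraries) and, per test, up to 10 genes per direction called whose groups did not overlap and that averaged 20 CPM or more. The members and lists were chosen with earlier results of these data known. Where nothing says that samples came from separate animals, p-values measure the spread between these samples, which may be technical. Xist and Ddx3y did differ between SARAWT libraries of the same treatment, so not all of those came from the same animal. Depth per library is given with the results, and intervals are exact binomial ones at 95%. The kidney libraries entered no test, and only their cells passing the rule were counted.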

Additional observations from a re-analysis of the deposited data

Results flagged for a closer look

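The bleomycin effect in mast cells differed between SARATg and SARAWT for 13 of 3777 genes by an interaction term in edgeR (0.238% with a positive and 0.106% with a negative difference). Each SARATg group was 1 library, and SARAWT PBS 2 was left out. Differences are on the log2 scale, SARATg minus SARAWT.

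The chymase-related gene Cma2 differed by 3.64 (adjusted p = 0.008), with 79.1 CPM in SARATg PBS and 388 CPM in SARATg bleomycin beside 733 and 309.6 CPM in the libraries labelled SARAWT PBS 1 and 3 and 107 to 343 CPM in SARAWT bleomycin. Clec12b, an inhibitory lectin receptor and a leading gene of the mast cells, differed by -2.77 (adjusted p = 0.0435), with 201 and 98.1 CPM in SARATg PBS and bleomycin, 215 and 199.5 CPM in the libraries labelled SARAWT PBS 1 and 3 and 442 to 936 CPM in SARAWT bleomycin. That call was lost in 9 of 17 alternatives, among them those without doublets (adjusted p = 0.0675), without cells of mixed markers (0.166) and without the library labelled SARAWT PBS 1 (0.136). Zfyve9 differed by 5.85 (adjusted p = 0.000804), where the library labelled SARAWT PBS 3 had 619 CPM, and the call was lost without that library (adjusted p = 0.463) and without SARAWT bleomycin 3 (adjusted p = 0.56).

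The calcium-binding genes S100a4 and S100a6 differed by 3.61 (adjusted p = 0.0405) and 2.41 (adjusted p = 0.0193). Without cells over 5000 UMIs these were 0.175 and 0.62, without doublets 1.89 and 0.83, and S100a6 was 0.22 without cells of mixed markers (adjusted p = 1 in each). The chemokine gene Ccl8 differed by 7.75 (adjusted p = 4.86e-05), Retnla by 6.39 (adjusted p = 0.000866), the keratin gene Krt10 by 5.95 (adjusted p = 0.0086), Fabp5 by 9.54 (adjusted p = 0.0205) and Tpm3-rs7 by 9.64 (adjusted p = 0.0189). Ccl8 stood at 7.19 and 192 CPM in SARATg PBS and bleomycin. In libraries labelled SARAWT it stood at 356 and 114 CPM in PBS 1 and 3 and at 8.18 to 51.5 CPM with bleomycin. Retnla stood at 93.5 and 263 CPM in SARATg PBS and bleomycin. It stood at 221 CPM in the library labelled SARAWT PBS 1 and at 0 to 8.59 CPM in the others of that genotype label. The Ccl8 call was lost in 2 and reversed in 1 of 15 alternatives, and the Retnla call was lost in 4 of 15. Krt10 stood at 763 CPM in SARATg bleomycin, where a single cell held 167 of its UMIs. Sparc differed by -3.47 (adjusted p = 0.0108). Gzmb differed by -8.18 (adjusted p = 9.61e-05) and Scin by -13.5 (adjusted p = 0.00869), and both were highest in SARAWT bleomycin 3, at 4378 and 745 CPM, the library with the 2 Mcpt8 cells. A fold that rests on libraries at 0, as for Scin, Fabp5 and Tpm3-rs7, depends on the prior count of the fit and is no bound. DESeq2 called 0 genes (29 at an unadjusted p under 0.05), as did edgeR without the gene list term (60 at an unadjusted p under 0.05).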

How the results depend on the processing

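The share of mast cells was lower with bleomycin in SARAWT under every alternative run, with differences of -0.250 to -3.37 points when 1 library was left out. Against other cells the leading genes had a median log2 ratio of 8.06 with 1 CPM added. Counts of called genes moved. In SARAWT (4 genes) they were 86 with every gene, 1 without doublets, 0 without cells of other markers, 1 with no minimum of cells, 2 without the proteases in the sums and 1 without cells over 5000 UMIs. Leaving out a library gave 0 (without any one of the bleomycin libraries; 83, 157 and 137 at an unadjusted p under 0.05) to 15 (without SARAWT PBS 1). Over both genotypes (27) they were 154, 17, 16 and 53 for the first 4 settings, 6 without the gene list term, and 14 (without SARAWT PBS 1) to 86 (without SARAWT bleomycin 3). Leaving out SARAWT PBS 3, SARATg PBS or SARATg bleomycin gave 68, 81 and 59. For genotype (13) they were 116, 1, 0 and 45, 6 without the gene list term, 1 without cells over 5000 UMIs, and 12 to 70 with 1 SARAWT library left out. For the interaction (13) they were 5 without doublets, 3 without cells of other markers, 8 with no minimum, 0 by DESeq2, 0 without the gene list term and 15 to 23 with 1 library left out, and fits without either SARATg library were not run. With every gene tested the median of all genes was -0.31 in SARAWT, -0.21 over both genotypes, 0.11 for genotype and 0.43 for the interaction. Some settings left called genes with too few UMIs to be tested. Without cells of other markers 1 of the 4 SARAWT calls and 11 of the 27 over both genotypes were tested, and without doublets 2 and 15.

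With a replicate block the counts were 74 in SARAWT, 72 over both genotypes and 57 for genotype. In the fits over both genotypes the block took the place of the gene list term. In SARAWT only the libraries numbered 1 and 3 formed pairs, since SARAWT PBS 2 was out. That fit had very little spread left to measure, so its count is not a gain from pairing. For the share the 3 same-numbered differences were -5.37, 2.15 and -2.45 points, with a mean of -1.89 points (exact permutation test, p = 0.5). Deviations of same-numbered SARAWT libraries from their group means correlated at 0.163 and 0.481, and other pairs at -0.481 to 0.400. With only 2 PBS libraries in the fit their deviations mirror each other, so each correlation has a partner of equal size and opposite sign. These values therefore cannot show pairing, and the labels give a number no meaning. Among SARAWT libraries those numbered 3 also share a gene list and sex that those numbered 1 and 2 do not, and the block cannot be told apart from these. Both SARATg libraries are numbered 1 but have the gene list and sex of the libraries numbered 3.

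Of 947 alternatives for 57 gene results, 752 kept direction and call, 183 lost the call and 12 reversed. Settings in which a gene had too few UMIs to be tested are not among the 947. For genotype, without cells over 5000 UMIs, Col1a1 was -0.76, Col1a2 -0.67, Col3a1 -1.08 and Sparc -0.75, and Sparc was -0.44 without doublets. Mcpt8 was 0.0147 with the replicate block and -5.05 to 4.69 with 1 library left out. For the interaction, Ccl8 was -1.15 with 30 protease UMIs, Sparc 1.59 without doublets, and Gzmb 0.90 without cells of other markers and -10.9 to 2.94 with 1 library left out. The cause was not tested. Omitting cells over 5000 UMIs and thinning to 1000 UMIs were chosen after seeing the data. Shallow cells left most listed genes too sparse to test.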

Other observations

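The same count rule was applied to the 9 kidney libraries of the series, in which 6 of 61744 kept cells passed. A passing cell was present in 5 of those libraries, and the highest share was 0.0335% (2 of 5969 cells, SARATg vehicle 2), beside 0.384% to 6.62% in skin.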
